A study of Mus musculus with 41 samples.

Results

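The EGF family and the ErbB receptors were examined in the tibiae of 41 p16-INK-ATTAC mice. The set was given by name and held 10 genes of the 43346 in the count table. Of these, 7 encode ligands (Egf, Ereg, Areg, Hbegf, Btc, Tgfa and Nrg1) and 3 encode receptors (Egfr, Erbb2 and Erbb3). All 10 were matched by symbol, and 8 passed the filter on low counts that left 19292 genes for testing. Ereg and Areg did not pass it.

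All mice carried the INK-ATTAC transgene on a C57BL/6 background. In this line the p16Ink4a promoter drives a caspase that the drug AP20187 (AP) activates, so that only cells in which this promoter is active are targeted. The young group held 12 mice, labelled as 6 to 12 months old and as vehicle, which served as the reference for age. The old + vehicle-treated group held 13 mice and the old + AP-treated group 16 mice. The old mice, female by the study's methods, were injected with vehicle or with 10 mg of AP per kg body mass for 4 months, starting at 20 months of age. By the study's methods they were sacrificed at 24 months, and the young mice were 6 months old. The study's figure legends give the young mice as female as well. The shaft of the tibia had been spun to remove marrow before RNA was extracted.

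Ligands of the EGF family are made as membrane proteins, and most are released by metalloproteases of the ADAM family. They bind ErbB receptors, which pair with each other and signal through the Ras and MAP kinase cascade. ErbB2 binds no known ligand and acts as a partner, and ErbB3 has a weak kinase and depends on one. In bone, signalling through EGFR in cells of the osteoblast lineage is known to act on their growth and on bone mass, while neuregulins that bind ErbB3 are best known from Schwann cells, heart and muscle.

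Total counts ranged from 37028959 to 75942717 reads a mouse, with a median of 47774880. Osteoblast and osteocyte markers were read in all mice, but RNA of other tissues was read as well. The 20 skeletal muscle markers summed to between 12243 and 185789 CPM (counts scaled to the library size, after TMM normalization) and the 8 neutrophil markers to between 4832 and 33643 CPM. Marker levels are given as scores, the mean z-score of log2 CPM over a list. The old + vehicle-treated mouse 16 stood apart by a neutrophil score of -2.53. The old + AP-treated mouse 19 did so by -2.53 for skeletal muscle, -2.74 for osteocytes and -2.58 for endothelial cells. Mouse 18 of the same group did so by 3.69 for T cells and -2.40 for osteocytes. In this group mouse 24 also stood apart by -2.59 for osteoblasts and mouse 5 by 2.51 for Schwann cells. The old + vehicle-treated mouse 7 stood apart by 2.603 for osteoclasts. Cdkn2a, which encodes p16Ink4a and whose promoter drives the transgene, had a median of 0.587 CPM in young, 2.20 CPM in old + vehicle-treated and 1.10 CPM in old + AP-treated mice. In whole bone, a lower share of a cell type cannot be told apart from less RNA per cell.

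Of the members, 2 changed past the threshold, each in 1 comparison. Egf was higher in old + vehicle-treated than in young mice, and Nrg1 was higher in old + AP-treated than in young mice. A gene was called at a Benjamini-Hochberg adjusted p under 0.05 over all 19292 genes and a log2 fold change past 0.5 in edgeR's quasi-likelihood test. Thus 1 of the 8 tested members was called between old + vehicle-treated and young mice, where 9.06% of all tested genes were, and 1 of 8 between old + AP-treated and young mice, where 8.58% were. Between the 2 groups of old mice, AP against vehicle, no member was called by edgeR or by DESeq2, with 0.0726% of all genes called by edgeR and 1.12% by DESeq2. No member had an unadjusted p under 0.05 in that comparison. All 3 comparisons share groups, so their values are not independent of each other.

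**Figure D1:**
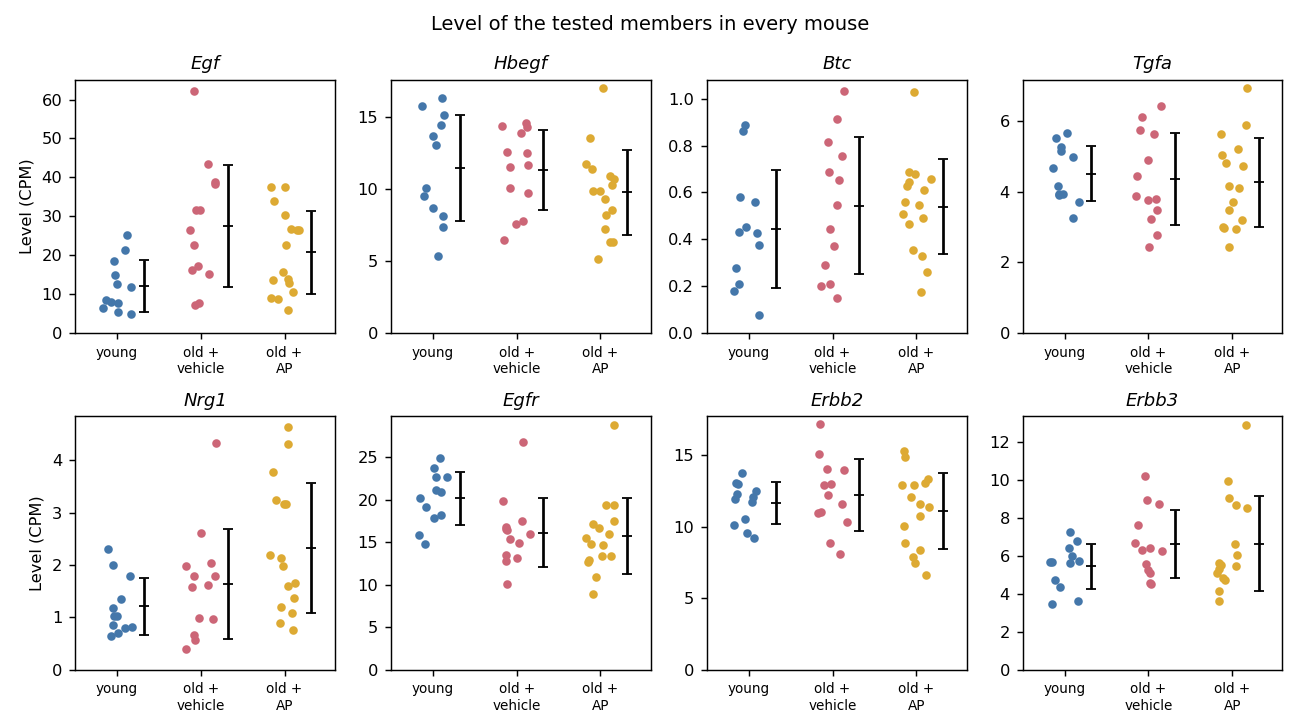
Level of the 8 tested members in CPM, 1 point a mouse, for the young (n = 12) and the old mice given vehicle (n = 13) or AP (n = 16), with mean and SD as bars beside the points. The groups overlap in every panel. Egf reaches 62.2 CPM in an old + vehicle-treated mouse against at most 25.3 CPM in young mice.

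Per exon length, Egf and Hbegf were the most abundant ligands. In old + vehicle-treated mice the median level was 5.57 RPKM (reads per kilobase of exon, scaled to the library size) for Egf, 4.93 for Hbegf, 0.768 for Nrg1, 0.448 for Tgfa and 0.191 for Btc. Among the receptors it was 2.34 RPKM for Erbb2, 1.41 for Egfr and 1.05 for Erbb3. The ranges over mice overlapped between Egf and Hbegf, between Egf and Nrg1, among Nrg1, Tgfa and Btc, and among all 3 receptors, so that this order is one of medians. In young mice Hbegf led with 4.87 RPKM, and Egf was at 2.12 RPKM, close to Erbb2 at 2.30 RPKM.

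Egf (ENSMUSG00000028017, GRCm38 chromosome 3, 129677575 to 129755322) encodes epidermal growth factor, the founding ligand of EGFR. It was read at 4.93 to 25.3 CPM in young mice (median 10.1), at 7.28 to 62.2 CPM in old + vehicle-treated mice (median 26.5) and at 5.87 to 37.5 CPM in old + AP-treated mice (median 19.2). The groups overlapped, and 7 of the 13 old + vehicle-treated and 7 of the 16 old + AP-treated mice lay above the highest young mouse. Mean levels were 12.1 ± 6.65 (young, SD, n = 12), 27.6 ± 15.7 (old + vehicle-treated, SD, n = 13) and 20.8 ± 10.7 CPM (old + AP-treated, SD, n = 16). Egf was 2.28-fold higher in old + vehicle-treated than in young mice (log2 fold change 1.19, standard error 0.32, edgeR adjusted p = 0.00782), with 11 of 13 mice above the young median. It was called in each of 41 fits that left out 1 mouse. In old + AP-treated against young mice its log2 fold change of 0.78 (standard error 0.31) missed the threshold in edgeR (adjusted p = 0.0738) and passed it in DESeq2 (adjusted p = 0.0433). Leaving out young mouse 36, the highest of its group, or old + AP-treated mouse 19 also brought it past. Between the old groups the log2 fold change was -0.41 (95% interval -1.01 to 0.19, edgeR adjusted p = 0.392).

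The start of Egf is shown because the level of this gene followed that of muscle genes in these bones, as described next. RefSeq (GRCm38.p6) places a start site within chr3:129755273-129755572, which is read here 5′ to 3′ on the minus strand and includes the upstream end of the deposited gene model. The capitals mark the only E-box (CANNTG, the motif bound by basic helix-loop-helix factors, which reads the same on both strands).

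Egf start window: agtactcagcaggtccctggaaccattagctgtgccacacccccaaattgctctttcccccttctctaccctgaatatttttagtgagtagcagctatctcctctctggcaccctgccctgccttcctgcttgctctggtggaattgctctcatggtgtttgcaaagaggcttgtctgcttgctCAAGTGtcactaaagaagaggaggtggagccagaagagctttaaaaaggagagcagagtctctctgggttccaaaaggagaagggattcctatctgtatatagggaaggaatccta

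At least 1 E-box is found in 72.3% of the 32851 start windows of the same length in this table. No exact MEF2 site (YTAWWWWTAR, Y being C or T, W A or T, R A or G) was found in this window. Such a site is in 3.19% of all windows, and sites with a mismatch were not searched for. The window of a second RefSeq start of Egf held 2 E-boxes. Windows of 6 of the 10 members were in the table, and Btc had 4 E-boxes, Areg 2, Tgfa and Erbb2 1 each, and Egfr none. None of them held an exact MEF2 site.

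Egf followed the skeletal muscle score within every group. Pearson's r of its log2 CPM with the score was 0.958 in 12 young mice, 0.971 in 13 old + vehicle-treated mice and 0.942 in 16 old + AP-treated mice. Spearman's rho was 0.951, 0.945 and 0.941 in the same order. The adjusted p was 2.4e-05 for r and 4e-05 for rho in young mice and 1.5e-05 for both measures in both old groups (two-sided permutation tests with 100000 resamples, adjusted over 6 values). Without the 2 mice farthest from the median score, r was 0.937, 0.962 and 0.943. Egf rose by 0.86, 1.05 and 0.81 on the log2 scale per unit of score in young mice and in old mice given vehicle or AP, in that order.

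**Figure D2:**
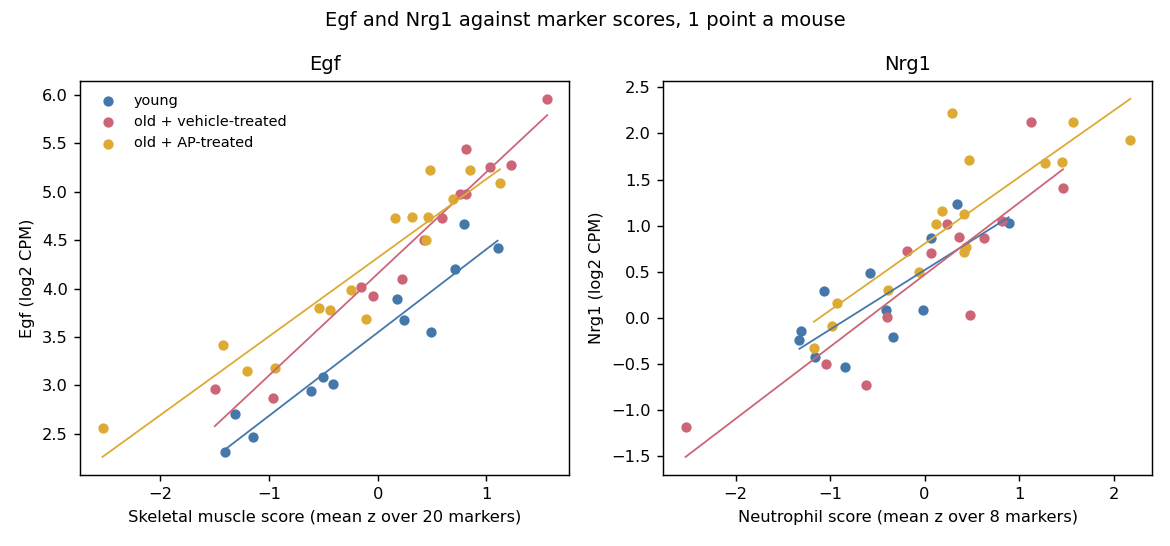
Left, Egf (log2 CPM) against the skeletal muscle score, and right, Nrg1 (log2 CPM) against the neutrophil score, with 1 point a mouse and a least-squares line for each group. Within groups the Egf points lie close to their lines (r from 0.942 to 0.971), and the line of the young mice lies below those of the old mice. The Nrg1 points scatter more (r from 0.777 to 0.879), and the lines of the young and the old + vehicle-treated mice lie close together.

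The genes most like Egf over all 41 mice, after centring on group means, were Neb (r = 0.975), the giant scaffold protein of the muscle thin filament, Sar1b (0.968), Ubr3 (0.968), Prkar2a (0.968), a regulatory subunit of protein kinase A, and Ttll7 (0.967). Within the 13 old + vehicle-treated mice they were Klhl8, Camk2a, Rasd2, Asb16 and Prkab2, with r from 0.986 to 0.988. No other list tracked Egf as closely as skeletal muscle did (r = 0.951 over all mice, centred on groups). The next largest in size were those of megakaryocytes (-0.66), erythroid cells (-0.64) and neutrophils (-0.63), all negative. Shares of one library trade off against each other, so that these r are not independent.

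The skeletal muscle score overlapped widely between the groups, and its difference was not tested. The skeletal muscle score was -0.156 ± 0.864 (young, SD, n = 12), 0.368 ± 0.863 (old + vehicle-treated, SD, n = 13) and -0.182 ± 0.968 (old + AP-treated, SD, n = 16). The 20 markers summed to 24530 to 136860 CPM in young, 23716 to 185789 CPM in old + vehicle-treated and 12243 to 142508 CPM in old + AP-treated mice, and none was at 0 in any group. In old + vehicle-treated against young mice 5 of 20 were called higher and 0 lower, in old + AP-treated against young mice 1 was called higher and 0 lower, and between the old groups none was called. The shares of all genes called were 9.06%, 8.58% and 0.0726%, so that 1 of 20 is below the share of all genes.

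With the skeletal muscle score as a covariate, Egf was higher in both old groups than in young mice. For old + vehicle-treated against young mice its log2 fold change became 0.67 (standard error 0.11, edgeR adjusted p = 1.89e-05) in place of 1.19. It was 0.79 for old + AP-treated against young mice (standard error 0.10, edgeR adjusted p = 3.99e-07), close to the 0.78 without the covariate but now called. The difference between the old groups went from -0.41 to 0.13 (standard error 0.10, edgeR adjusted p = 0.524). Both calls against young mice held in each of 41 fits that left out 1 mouse, with log2 fold changes from 0.63 to 0.72 and from 0.75 to 0.84. In these models 9.3% of all genes were called for old + vehicle-treated against young mice, 10.3% for old + AP-treated against young mice and 0.00518% between the old groups. The members called were Egf in the first, Egf and Nrg1 in the second, and none in the third.

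These calls of Egf depended on which muscle markers entered the score. With the 20-marker score as covariate the markers themselves did not stay level. Between old + vehicle-treated and young mice, 9 of the 10 shorter markers (800 to 2074 bases) had a log2 fold change below 0 and 8 of the 10 longer ones (2894 to 116825 bases) one above 0, with medians of -0.39 and 0.34. The range was from -0.79 for Pvalb, a calcium buffer of fast fibres, to 1.75 for Myh7, the myosin of slow fibres, and Egf (4757 bases, 0.67) lay within it. Ryr1, the calcium release channel, stood at 0.97, Cacna1s, its voltage sensor, at 0.45 and Tnnc2, the fast troponin C, at -0.45. With a score of the 10 longer markers alone, a choice made after these values were seen, the log2 fold change of Egf was 0.31 for old + vehicle-treated against young mice (standard error 0.10, edgeR adjusted p = 0.0204) and 0.41 for old + AP-treated against young mice (standard error 0.092, edgeR adjusted p = 0.000733). Both lie under the fold-change threshold and are not called. With a score of 6 of the markers (Acta1, Ckm, Myh4, Mylpf, Tnnt3 and Atp2a1) the values were 0.72 and 0.86, both called. The part of fibre type, RNA quality and transcript length in this was not tested.

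**Figure D3:**
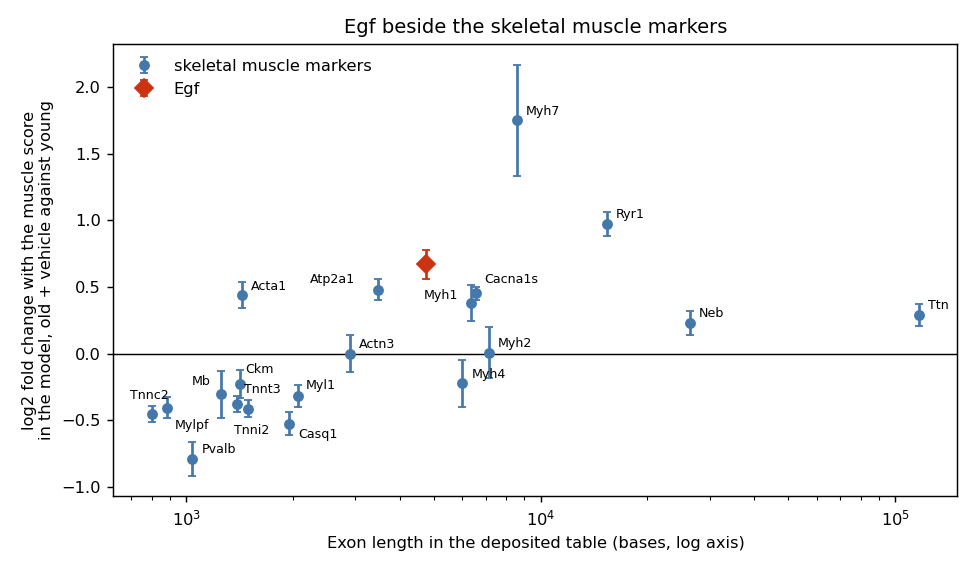
Log2 fold change (old + vehicle-treated against young) with the 20-marker skeletal muscle score in the model, against exon length in bases on a log axis, for the 20 markers (circles) and Egf (diamond), with standard errors as bars. Egf at 0.67 lies above most markers, between Atp2a1 at 0.48 and Ryr1 at 0.97, and 9 of the 10 shorter markers lie below 0.

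Hbegf (ENSMUSG00000024486, chromosome 18, 36504929 to 36515805) encodes heparin-binding EGF-like growth factor, a ligand of EGFR and ErbB4. It was read at 5.37 to 16.3 CPM in young (median 11.6), at 6.47 to 14.6 CPM in old + vehicle-treated (median 11.7) and at 5.17 to 17.02 CPM in old + AP-treated mice (median 9.90). The groups overlapped almost completely, although 13 of 16 old + AP-treated mice lay below the young median. Its log2 fold change was -0.02 (95% interval -0.36 to 0.33) for old + vehicle-treated and -0.23 (-0.56 to 0.10) for old + AP-treated against young mice. The edgeR adjusted p were 0.957 and 0.338. The genes most like it, looked up after its values were seen, were Cilp (r = 0.752), a cartilage matrix protein, and Dpt (0.742), dermatopontin of connective tissue.

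Tgfa (ENSMUSG00000029999, chromosome 6, 86195251 to 86275639), transforming growth factor alpha, differed little between groups. Its range was 3.26 to 5.66 CPM in young (median 4.43), 2.42 to 6.43 CPM in old + vehicle-treated (median 3.87) and 2.43 to 6.94 CPM in old + AP-treated mice (median 4.13), so that the old groups extended beyond the young one on both sides. The log2 fold changes were -0.05, -0.03 and -0.08 for old + vehicle-treated against young, between the old groups and for old + AP-treated against young mice, and no 95% interval went past 0.39 in size. Within groups Tgfa went with the osteoblast score (r = 0.753 over 41 mice, centred on groups) and with the endothelial score (0.684). The osteoblast score itself was 0.706 ± 0.440 (young, SD, n = 12), -0.0432 ± 0.691 (old + vehicle-treated, SD, n = 13) and -0.495 ± 1.04 (old + AP-treated, SD, n = 16).

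Btc (ENSMUSG00000082361, chromosome 5, 91357261 to 91402994), betacellulin, was read thinly, with 1005 reads over all 41 mice. It ranged from 0.0782 to 0.888 CPM in young, from 0.148 to 1.03 CPM in old + vehicle-treated and from 0.176 to 1.03 CPM in old + AP-treated mice. These ranges were nearly the same. The 95% interval of its log2 fold change was -0.31 to 0.90 for old + vehicle-treated against young mice and -0.57 to 0.55 between the old groups, so that changes of moderate size in either direction could not be detected.

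Ereg, epiregulin (ENSMUSG00000029377, chromosome 5, 91074617 to 91093649), and Areg, amphiregulin (ENSMUSG00000029378, chromosome 5, 91139615 to 91148432), lie next to each other and were close to absent from the counts. Over all mice, Ereg had 49 reads and Areg 48. At least 1 read of Ereg was found in 4 of 12 young, 3 of 13 old + vehicle-treated and 8 of 16 old + AP-treated mice, with at most 12 reads in a mouse. Areg was found in 4 of 12, 8 of 13 and 8 of 16 mice, with at most 7 reads. Differences in mean log2 CPM were between -0.33 and 0.41, and none passed (6 two-sided permutation tests with 100000 resamples, smallest p = 0.167, adjusted p = 0.51). With so few reads no difference was detected, and what size of difference could have been detected was not tested.

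Nrg1 (ENSMUSG00000062991, chromosome 8, 31818028 to 31918203) encodes neuregulin 1, the main ligand of ErbB3 and ErbB4. The deposited gene model holds 2103 exonic bases and spans 9.37% of the gene in GENCODE M21, so that reads of promoters and exons farther upstream were not counted. It was read at 0.647 to 2.31 CPM in young (median 1.02), at 0.399 to 4.32 CPM in old + vehicle-treated (median 1.62) and at 0.754 to 4.63 CPM in old + AP-treated mice (median 2.06). The groups overlapped, with 6 of 16 old + AP-treated and 2 of 13 old + vehicle-treated mice above the highest young mouse. Nrg1 was 1.92-fold higher in old + AP-treated than in young mice (log2 fold change 0.94, standard error 0.30, edgeR adjusted p = 0.0252), with 14 of 16 mice above the young median. It was called in each of 41 fits that left out 1 mouse, with adjusted p up to 0.0495 (without mouse 5). For old + vehicle-treated against young mice the log2 fold change was 0.44 (95% interval -0.19 to 1.06, edgeR adjusted p = 0.347). Between the old groups it was 0.50 (-0.08 to 1.09, edgeR adjusted p = 0.276).

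The neutrophil score overlapped between the groups, and its difference was not tested. The neutrophil score was -0.478 ± 0.702 (young, SD, n = 12), 0.0323 ± 1.04 (old + vehicle-treated, SD, n = 13) and 0.332 ± 0.946 (old + AP-treated, SD, n = 16). Its 8 markers summed to 7936 to 19100 CPM, 4832 to 25263 CPM and 8767 to 33643 CPM in the same order. In old + AP-treated against young mice 2 of 8 were called higher, Ltf (log2 fold change 0.56) and Mpo (0.77), both proteins of neutrophil granules, where 8.58% of all genes were called. None of the 8 was called in the other comparisons. Other lists held called genes as well, such as 4 of 6 T cell markers, 2 of 6 mast cell markers and the Schwann cell markers Mbp (log2 fold change 0.54) and Prx (0.84), all higher in old + AP-treated than in young mice. The group-centred r of Nrg1 with the scores of T cells, mast cells and Schwann cells was 0.355, 0.241 and -0.171, and with those of megakaryocytes and erythroid cells it was 0.639 and 0.554. The part of these cells in the level of Nrg1 was not tested. None of the 8 was at 0 in any group.

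Within groups Nrg1 followed the neutrophil score, a relation examined after its pattern was seen. Pearson's r was 0.777 in young, 0.879 in old + vehicle-treated and 0.853 in old + AP-treated mice. Spearman's rho was 0.727, 0.896 and 0.821. The adjusted p was 0.00401 for r and 0.0096 for rho in young mice, and at most 0.000375 in the old groups (two-sided permutation tests, adjusted over 6 values). Without the 2 mice farthest from the median score r was 0.565 in young mice (permutation p = 0.0904), where the relation then rests on those mice, and 0.802 and 0.819 in the old groups. The most alike genes over 41 mice, centred on groups, were Alox5ap (r = 0.908), which serves leukotriene synthesis in myeloid cells, Pirb (0.908), an inhibitory receptor of myeloid cells, Napsa (0.905), Plac8 (0.896) and Ugt1a7c (0.895).

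With the neutrophil score as a covariate, Nrg1 was no longer called in old + AP-treated against young mice. Its log2 fold change there fell to 0.26 (standard error 0.18, edgeR adjusted p = 0.321), and for old + vehicle-treated against young mice it was -0.08 (edgeR adjusted p = 0.759). Between the old groups it was 0.34 (standard error 0.17, edgeR adjusted p = 0.211). With the 20-marker skeletal muscle score in its place it was 0.93 for old + AP-treated against young mice and was called (edgeR adjusted p = 0.00917). With the score of the 10 longer muscle markers it was also called for old + vehicle-treated against young mice (0.81, edgeR adjusted p = 0.0482).

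**Figure D4:**
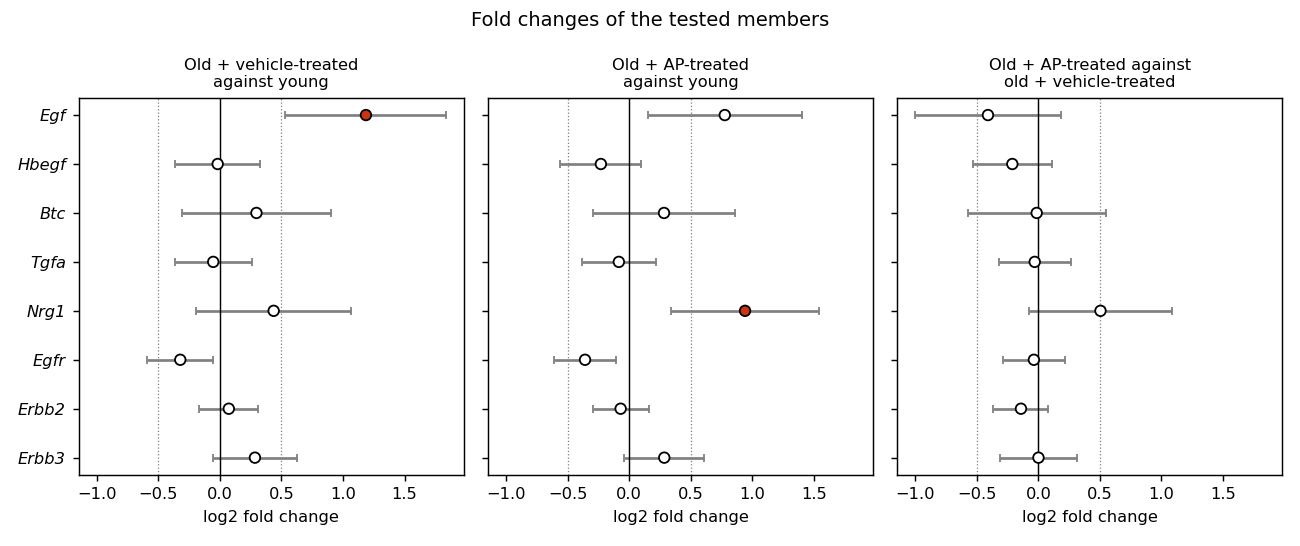
Log2 fold change of the 8 tested members in 3 comparisons, with 95% intervals from edgeR's quasi-likelihood fit as bars and dotted lines at the fold-change threshold of 0.5 in both directions. Filled points are called. Egf at 1.19 in old + vehicle-treated against young mice and Nrg1 at 0.94 in old + AP-treated against young mice are the only filled ones. Among the open points, both Egfr intervals against young mice lie below 0. The Egf interval for old + AP-treated against young mice lies above 0. The intervals are not adjusted over genes.

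Egfr (ENSMUSG00000020122, chromosome 11, 16752203 to 16918158), the receptor of Egf, Tgfa, Areg and other ligands, was lower in most old mice. It was read at 14.7 to 24.8 CPM in young (median 20.5), at 10.1 to 26.8 CPM in old + vehicle-treated (median 16.02) and at 8.86 to 28.8 CPM in old + AP-treated mice (median 15.1). Of the old mice, 12 of 13 given vehicle and 15 of 16 given AP lay below the young median, while the highest mouse of each old group, mouse 16 and mouse 10, lay above all young mice. The log2 fold change was -0.32 (standard error 0.13, edgeR adjusted p = 0.0808) for old + vehicle-treated and -0.36 (standard error 0.13, edgeR adjusted p = 0.0417) for old + AP-treated against young mice. The second passed the adjusted p, as 17.8% of all genes did, but not the fold-change threshold. In fits that each left out 1 mouse, the adjusted p of the first ranged from 0.0215 (without mouse 16) to 0.141 (without mouse 23) and was under 0.05 in 2 of 41 fits. That of the second ranged from 0.00565 (without mouse 10) to 0.0763 (without mouse 30) and was under 0.05 in 29 of 41 fits. With the neutrophil score as covariate they were -0.24 and -0.21 (edgeR adjusted p = 0.102 and 0.209), and with the 20-marker skeletal muscle score they were -0.35 and -0.35 (edgeR adjusted p = 0.0475 and 0.0293). The second kept, and the first gained, an adjusted p under 0.05 with the muscle score, and neither was called. Between the old groups the log2 fold change was -0.04 (95% interval -0.29 to 0.21).

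The genes most like Egfr were looked up after its values were seen. They were Col3a1 (r = 0.856), the fibrillar collagen of connective tissue, Crabp2 (0.833), a carrier of retinoic acid, Mmp3 (0.814), a matrix metalloproteinase, and Col14a1 (0.806), a collagen that associates with fibrils. None of the marker lists reached this, the largest r being -0.47 for neutrophils and 0.40 for chondrocytes.

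Erbb2 (ENSMUSG00000062312, chromosome 11, 98412470 to 98437716), the partner of the other receptors, was read at 9.17 to 13.7 CPM in young mice (median 12.0). It ranged from 8.05 to 17.2 CPM in old + vehicle-treated (median 12.2) and from 6.62 to 15.3 CPM in old + AP-treated mice (median 11.5). Both old groups thus extended beyond the young one in both directions. Its log2 fold changes were 0.07 for old + vehicle-treated against young mice, -0.14 between the old groups and -0.07 for old + AP-treated against young mice. The lowest limit of the 95% intervals was -0.3645 and the highest was 0.3122. Like Tgfa, it went with the osteoblast score (r = 0.737 over 41 mice, centred on groups).

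Erbb3 (ENSMUSG00000018166, chromosome 10, 128567523 to 128589652) was read at 3.47 to 7.29 CPM in young (median 5.69), at 4.55 to 10.2 CPM in old + vehicle-treated (median 6.34) and at 3.63 to 12.9 CPM in old + AP-treated mice (median 5.58). The highest values were in old mice, 4 of 13 and 5 of 16 of which lay above all young mice, while the medians were close. The log2 fold change was 0.28 (95% interval -0.05 to 0.62, edgeR adjusted p = 0.243) for old + vehicle-treated and 0.29 (-0.04 to 0.61, edgeR adjusted p = 0.213) for old + AP-treated against young mice. Over 41 mice it went with the skeletal muscle score (r = 0.595, centred on groups) and less with that of Schwann cells (0.410). With the 20-marker muscle score as covariate the values were 0.13 and 0.29 (edgeR adjusted p = 0.509 and 0.0812).

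**Figure D5:**
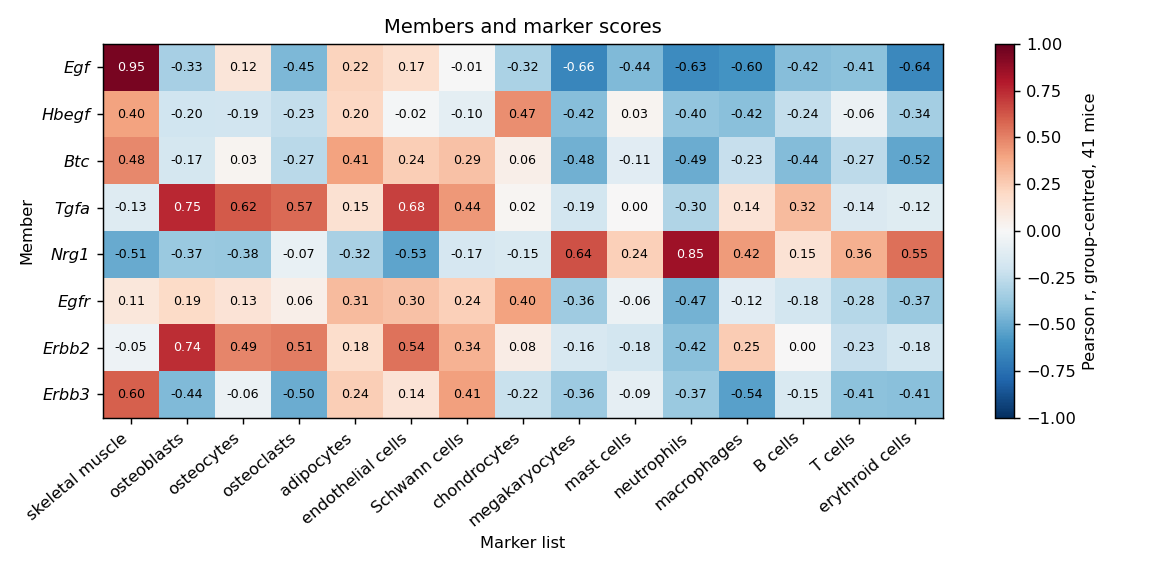
Pearson's r of the log2 CPM of each tested member with 15 marker scores over 41 mice, after centring both on group means, with colour from -1 to 1 and the value printed in each cell. Egf with skeletal muscle (0.95) and Nrg1 with neutrophils (0.85) are the largest, followed by Tgfa (0.75) and Erbb2 (0.74) with osteoblasts.

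Other parts of the pathway were read from lists of related genes. Among 5 further ligands and receptors, 3 passed the filter, and 2 of them, the neuregulins Nrg2 and Nrg4, rose in old + AP-treated against young mice, where 8.58% of all genes were called. The mean of Nrg4 was 1.59 ± 0.521 CPM (young, SD, n = 12), 2.03 ± 0.628 CPM (old + vehicle-treated, SD, n = 13) and 2.41 ± 0.843 CPM (old + AP-treated, SD, n = 16), and old + AP-treated mice exceeded young ones by 0.60 on the log2 scale (standard error 0.18, edgeR adjusted p = 0.0158). Nrg2 had a log2 fold change of 0.66 (edgeR adjusted p = 0.023), and without old + AP-treated mouse 19 it missed the threshold (0.57, adjusted p = 0.0508). The third, Erbb4, the receptor of several of these ligands, was low, with medians from 0.405 to 0.536 CPM, and was not called. Epgn and Nrg3 did not pass the filter. In old + vehicle-treated against young mice none of the 3 was called.

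Of the 6 proteases and partners that release the ligands, only Adam12 was called, in both comparisons with young mice, where 9.06% (old + vehicle-treated) and 8.58% (old + AP-treated) of all genes were. It was read at 67.0 to 113 CPM in young (median 82.6), at 27.5 to 74.0 CPM in old + vehicle-treated (median 60.7) and at 15.95 to 103 CPM in old + AP-treated mice (median 49.0). Its log2 fold change was -0.71 (standard error 0.21, edgeR adjusted p = 0.0126) for old + vehicle-treated and -0.78 (standard error 0.20, edgeR adjusted p = 0.005) for old + AP-treated against young mice. Adam17, the main protease of several EGFR ligands, was not called in any comparison. The osteoblast score was lower in old mice too, by the values given with Tgfa. Of its 9 markers, 3 were called lower for old + vehicle-treated and 6 for old + AP-treated against young mice, beside the same shares of all genes. The relation of Adam12 to this score was not tested.

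None of the 14 adaptors and kinases of the cascade was called. At an adjusted p under 0.05 without the fold-change threshold there were 5 for old + vehicle-treated against young mice, where 19.4% of all genes passed it, and 4 for old + AP-treated against young mice, where 17.8% did. Grb2, the adaptor that links the receptors to Ras, was among both, with log2 fold changes of 0.30 (edgeR adjusted p = 0.000649) and 0.34 (edgeR adjusted p = 0.000137). Over the 14 genes, log2 fold changes had a median of 0.10 for old + vehicle-treated and 0.09 for old + AP-treated against young mice, where that of all genes was 0.01 and 0.02.

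Among 16 feedback inhibitors of the receptors and the cascade, 2 rose and none fell in old + vehicle-treated against young mice, where 9.06% of all genes were called. Socs3, a suppressor that limits cytokine receptors, was read at 9.45 to 23.5 CPM in young mice. In old + vehicle-treated mice it was read at 17.8 to 68.1 CPM (median 30.7), with the highest value in mouse 16. Its log2 fold change was 0.92 (standard error 0.20, edgeR adjusted p = 0.00114), and it was 0.74 for old + AP-treated against young mice (edgeR adjusted p = 0.00661), the only call of the list there. Spry4, a Sprouty protein that dampens the MAP kinase cascade, had one of 0.52 (edgeR adjusted p = 0.00445) for old + vehicle-treated against young mice, close to the threshold, and was not called without young mouse 34 or old + vehicle-treated mouse 7 or 15. The median of the 16 genes was 0.13, against 0.01 for all genes.

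Transcripts that are induced downstream of the receptors, and of many other stimuli, were read from 9 genes. One of them, Fosl1, passed the filter on low counts through the old groups alone and is left out of the count. Of the other 8, 2 rose in old + vehicle-treated against young mice, where 9.06% of all genes were called, 0 were called in old + AP-treated against young mice, where 8.58% were, and none fell. Egr1 was read at 18.7 to 40.7 CPM in young (median 31.2) and at 31.03 to 108 CPM in old + vehicle-treated mice (median 51.7), higher by 0.78 on the log2 scale (standard error 0.20, edgeR adjusted p = 0.00488). Fos was higher by 0.90 on the log2 scale (standard error 0.30, edgeR adjusted p = 0.0308) and was not called without young mouse 39 or old + vehicle-treated mouse 6 or 7. Both are immediate early genes, which respond within minutes and also to handling of tissue.

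Fosl1, a Fos-related AP-1 subunit, was scarce, with 35 reads in all young, 260 in all old + vehicle-treated and 251 in all old + AP-treated mice. Its median was 0.0657 CPM in young, 0.251 CPM in old + vehicle-treated and 0.235 CPM in old + AP-treated mice, and mouse 16 alone reached 3.45 CPM. No young mouse, 8 of 13 old + vehicle-treated and 9 of 16 old + AP-treated mice reached the 0.209 CPM that the filter asks for, so that Fosl1 entered the test through the old groups, and its levels are given as a description with no test. Between the old groups none of the genes on these pathway lists was called by edgeR's quasi-likelihood test, and 1, Map2k2 (MEK2), had an adjusted p under 0.05 (0.0481, log2 fold change -0.44), as did 0.171% of all genes.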

How the data were processed

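RNA of 41 mouse tibiae was sequenced. The authors deposited raw read counts per gene, 1 column a mouse, with no normalization. The submitters' processing notes name TopHat2 2.0.6 and HTSeq, and GRCm38. The annotation release and the strand setting are not given in the sources used here, so reads of genes that overlap on opposite strands cannot be told apart. GEO's labels call the molecule genomic DNA, whereas the study's methods describe RNA. The labels and the methods differ on the ages of young mice.

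Groups came from the labels for age and treatment. The labels name no batch. In R 4.3.3, edgeR 4.0.16 gave TMM normalization, its filter by expression and a quasi-likelihood test in 1 model of the 3 groups, with Benjamini-Hochberg adjustment over all tested genes. The call thresholds follow the study's methods. CPM were scaled by TMM, and log2 CPM used a prior count of 2. RPKM were computed with the deposited exon lengths. At a total of 37028959 to 75942717 counts, 1 read is a small part of 1 CPM, and low genes are limited by counting error. Every pair of libraries in a group differed by at least 33 times the counting variance per gene, so none was deposited again within its group. Pairs across groups were not compared. Each sample was taken as 1 mouse because the study counts these groups in mice. Permutation tests used 100000 resamples, with a smallest p of 1e-05.

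The members and the marker and pathway lists were chosen with earlier results of these data known. The genes named were the 10 members, up to 3 called genes of each pathway list and comparison by size of change, the 5 genes most like Egf and each called member, and Cdkn2a. Others (Grb2, Map2k2, Adam17, Erbb4, the markers Ltf, Mpo, Pvalb, Myh7, Ryr1, Cacna1s, Tnnc2, Atp2a1, Mbp and Prx, and the genes most like Hbegf and Egfr) were chosen after their values were seen. Keratinocyte markers (1 of 5 tested) were not used.

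Alternatives were DESeq2 1.42.0, its size factors, no filter, 2-group models, no fold-change threshold, the 20-marker muscle score as covariate and each mouse left out in turn. Added after seeing the data were the neutrophil score, the scores of 6 and of the 10 longer muscle markers, and the muscle and neutrophil scores together as covariates. The scripts were tested on simulated data. Start windows came from RefSeq (GRCm38.p6).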

Additional observations from a re-analysis of the deposited data

How the results depend on the processing

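Egf for old + vehicle-treated against young mice and Nrg1 for old + AP-treated against young mice kept their calls with DESeq2, its size factors, no filter, 2-group models and each mouse left out. Of 1200 alternative log2 fold changes of single members, 1122 kept direction and call. For old + AP-treated against young mice the count of members called was 1, and it was 2 with DESeq2, without the fold-change threshold, and with the 20-marker or the 6-marker muscle score, and 1 to 2 with each mouse left out. Egf for old + vehicle-treated against young mice lost its call with the score of the 10 longer muscle markers. Nrg1 for old + AP-treated against young mice lost its call with the neutrophil score (0.26, edgeR adjusted p = 0.321) and with the muscle and neutrophil scores (0.18, adjusted p = 0.554), while Egf gained one there (1.26, adjusted p = 0.001, and 0.81, adjusted p = 2.61e-06), so that the count of 1 then stands for another gene. The cause was not tested. Nrg1 and the neutrophil score had r = 0.565 in young mice without the 2 farthest mice. Depth limits Ereg, Areg and Btc.

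Signs turned in differences that were not called. With the neutrophil score as covariate, old + vehicle-treated against young mice gave 0.0807 for Hbegf and -0.0812 for Nrg1, the old groups gave 0.165 for Btc, 0.00212 for Tgfa and 0.0336 for Egfr, and old + AP-treated against young mice gave 0.0018 for Tgfa and 0.0315 for Erbb2. With both scores, the first comparison gave 0.00994 for Hbegf, 0.212 for Tgfa and -0.215 for Nrg1, the second 0.125 for Egf and 0.258 for Btc, and the third 0.138 for Tgfa and 0.127 for Erbb2. Between the old groups Egf was 0.125, 0.137 and 0.0979 and Btc 0.246, 0.256 and 0.236 with the 20-marker, 6-marker and longer-marker scores, and Egfr was 0.000895 with 6 markers. The longer-marker score gave -0.0343 for Btc and 0.0273 for Tgfa in old + vehicle-treated against young mice. Erbb3 between the old groups was -0.000479 with DESeq2, -0.000625 with its size factors and -0.00272 without a filter. With each mouse left out, Hbegf ranged from -0.0938 to 0.0385 for old + vehicle-treated against young mice, and between the old groups Btc ranged from -0.103 to 0.0988, Tgfa from -0.0910 to 0.0292, Egfr from -0.118 to 0.0455 and Erbb3 from -0.0926 to 0.0663.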
